A study of Mus musculus with 6 samples.

Results

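Hepatokines are hormones and plasma proteins that the liver releases into the blood. Messenger RNA of 9 hepatokine genes, Fgf21, Gdf15, Angptl4, Angptl8, Ahsg, Fetub, Fst, Inhbe and Enho, was followed here in liver libraries of 2 mouse genotypes. The genes were chosen by symbol from a table of 55573 genes, and each symbol had a single row. The p21TKO mice lacked p21 (Cdkn1a, a cyclin-dependent kinase inhibitor), mTR (Terc, the RNA template of telomerase) and Wrn (a RecQ helicase). The DKO mice lacked mTR and Wrn and were the control, so that both groups shared these 2 deletions. Both groups were of generation 3, received normal feed and were represented by 3 polyA RNA libraries each. Every sample title also carries the code 2M, which is not expanded there, and strain, age and sex are otherwise not spelled out in the sources used here. The series asked which liver pathways differ after loss of p21 in animals that already show signs of premature ageing.

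FGF21 and GDF15 are stress hormones: the liver raises FGF21 in fasting through PPARA and under amino acid or endoplasmic reticulum stress through ATF4, and GDF15 is raised by cell stress in many tissues and acts on the hindbrain receptor GFRAL. ANGPTL4 and ANGPTL8 restrain lipoprotein lipase, ANGPTL4 as a PPARA target of the fasted state and ANGPTL8 as an insulin-induced protein of the fed state. Fetuin-A (Ahsg) and fetuin-B (Fetub) are abundant cystatin-domain plasma proteins, follistatin (Fst) binds and neutralises activins, Inhbe encodes the activin E subunit, and Enho encodes adropin, a small secreted peptide tied to lipid and glucose handling.

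Promoter sequences were held in RefSeq (GRCm38.p6) for 6 of the 9 genes, Fgf21, Gdf15, Angptl8, Inhbe, Ahsg and Fetub. The 250 bases before the transcription start of 4 of them are shown, because ATF4 and its partners regulate several hepatokines through the element TGATGNAA, which was searched on both strands. Capitals mark its matches, and all sequences run 5' to 3' along the gene.
Gdf15 (chr8:70632457-70632706, minus strand): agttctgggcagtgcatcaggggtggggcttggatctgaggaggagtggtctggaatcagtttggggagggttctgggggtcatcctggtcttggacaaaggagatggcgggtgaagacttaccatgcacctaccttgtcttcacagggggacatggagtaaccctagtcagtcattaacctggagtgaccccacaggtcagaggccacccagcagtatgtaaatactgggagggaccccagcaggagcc
Fgf21 (chr7:45615491-45615740, minus strand): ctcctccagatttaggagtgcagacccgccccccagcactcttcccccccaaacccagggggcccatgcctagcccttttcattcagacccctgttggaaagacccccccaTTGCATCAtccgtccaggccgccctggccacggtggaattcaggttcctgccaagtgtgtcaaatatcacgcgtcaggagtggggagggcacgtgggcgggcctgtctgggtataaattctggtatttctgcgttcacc
Angptl8 (chr9:21835260-21835509, plus strand): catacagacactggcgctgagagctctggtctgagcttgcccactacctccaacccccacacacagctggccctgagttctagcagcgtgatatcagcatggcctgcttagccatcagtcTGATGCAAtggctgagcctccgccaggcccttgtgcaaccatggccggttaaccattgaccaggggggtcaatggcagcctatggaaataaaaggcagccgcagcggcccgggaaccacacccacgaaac
Inhbe (chr10:127351849-127352098, minus strand): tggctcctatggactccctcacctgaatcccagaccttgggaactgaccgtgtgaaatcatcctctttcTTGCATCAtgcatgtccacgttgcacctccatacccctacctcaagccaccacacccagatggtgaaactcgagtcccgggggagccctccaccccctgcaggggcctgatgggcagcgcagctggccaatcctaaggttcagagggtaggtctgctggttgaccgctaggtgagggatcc
The element was present in Fgf21, Angptl8 and Inhbe, beginning 139, 130 and 181 bases before the start, and these letters were not found in the windows of Gdf15, Ahsg and Fetub. It occurred in 3.45% of all 32851 promoter windows of this length. The E-box CACGTG was found in Fgf21 and in a second, downstream start of Gdf15, and in 6.02% of all windows. TATAAA was found in Fgf21 and Fetub (12.4% of windows). CCAAT was found in Inhbe, in Fetub and in the window of the downstream start of Gdf15, not in the Gdf15 window printed above (33.8% of windows). The letters TGACGTCA, TTGCGCAA and TGACGCAA and the direct-repeat element of PPAR were in none of the 6 genes' windows and in 1.55%, 0.164%, 0.438% and 0.0822% of all. All were searched on both strands. The RefSeq starts of Inhbe, Ahsg and Fetub and the second start of Gdf15 lie inside the genes as GENCODE M21 draws them. Their windows therefore lie partly or wholly within those genes. Such matches describe sequence and are not evidence that a factor binds.

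The libraries were described by FPKM, which scales the reads of a gene by its exon length and the library size. Differences are log2 fold changes of p21TKO over DKO, taken on FPKM + 1, and the added 1 shrinks those of scarce transcripts. The reads behind the FPKM denominators numbered 19363284 to 27061290 in p21TKO and 21516838 to 24027504 in DKO. Cdkn1a transcripts stood at 1.41, 11.0 and 6.5 FPKM in p21TKO replicates 1 to 3 and at 0.761, 1.79 and 0.405 FPKM in DKO. Since the sources do not say which part was deleted, these values cannot check the genotype labels, and p21TKO and DKO mean the libraries so labelled throughout. Y-linked transcripts were present in p21TKO replicate 1 and DKO replicates 2 and 3, so the groups differed in sex. Across genes, which are not independent replicates, the nearest library to p21TKO replicate 1 was a DKO one, replicate 2 (Pearson r = 0.978), while p21TKO replicates 2 and 3 were nearest to each other (r = 0.953). Neutrophil markers summed to 24.9, 554 and 221 FPKM in p21TKO replicates 1 to 3 and to 10.6 to 29.2 FPKM in DKO, Kupffer cell markers to 47.5, 404 and 224 against 62.7 to 136, and mitochondrially encoded genes held 15.3%, 7.41% and 10.02% against 14.1% to 22.6% of all FPKM. Hepatocyte markers summed to 52760 to 57390 FPKM in p21TKO and 40900 to 52260 FPKM in DKO. Lymphocyte markers summed to at most 2.71 FPKM. Of 6 adipocyte markers, Lep and Retn were at 0 in every library and Adipoq, Plin1 and Cfd did not exceed 0.336 FPKM, while Fabp4, which endothelial cells and macrophages also express, stood at 1.07, 4.755 and 4.495 FPKM in p21TKO replicates 1 to 3 and at 0.982 to 1.51 FPKM in DKO. Whether each library came from its own animal is not stated, and p-values therefore refer to the spread among libraries, which may be partly technical. Each group held libraries with and without Y-linked transcripts, so the libraries of a group came from more than 1 animal. In bulk liver, fewer cells of a type and less RNA per cell cannot be told apart.

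No hepatokine gene passed the test between the genotypes. Of the 9, 8 reached the mean of 1 FPKM required for testing (Fst did not), and 0 of the 8 passed at an adjusted p under 0.05 (limma, Benjamini-Hochberg over all tested genes), where 0.0734% of all 9538 tested genes did (0.0315% higher and 0.0419% lower), 7 in number. At an unadjusted p under 0.05 there were 2 of 8, Inhbe lower and Angptl8 higher, where 9.38% of all tested genes were (4.09% higher and 5.29% lower). The libraries of one genotype lay wholly below the other for 2 of 8, Inhbe and Enho, where 15.4% of all tested genes were separated (6.93% higher and 8.49% lower). The median log2 difference of the 8 was -0.41 and that of all tested genes was 0.002. Of all 9538 tested genes, 4790 had higher and 4748 lower values in p21TKO, the background for the direction counts of the lists below. With 1 library left out the median of the 8 ran from -0.75 (without DKO replicate 3) to 0.32 (without DKO replicate 2), so its sign depended on the libraries included.

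**Figure D1:**
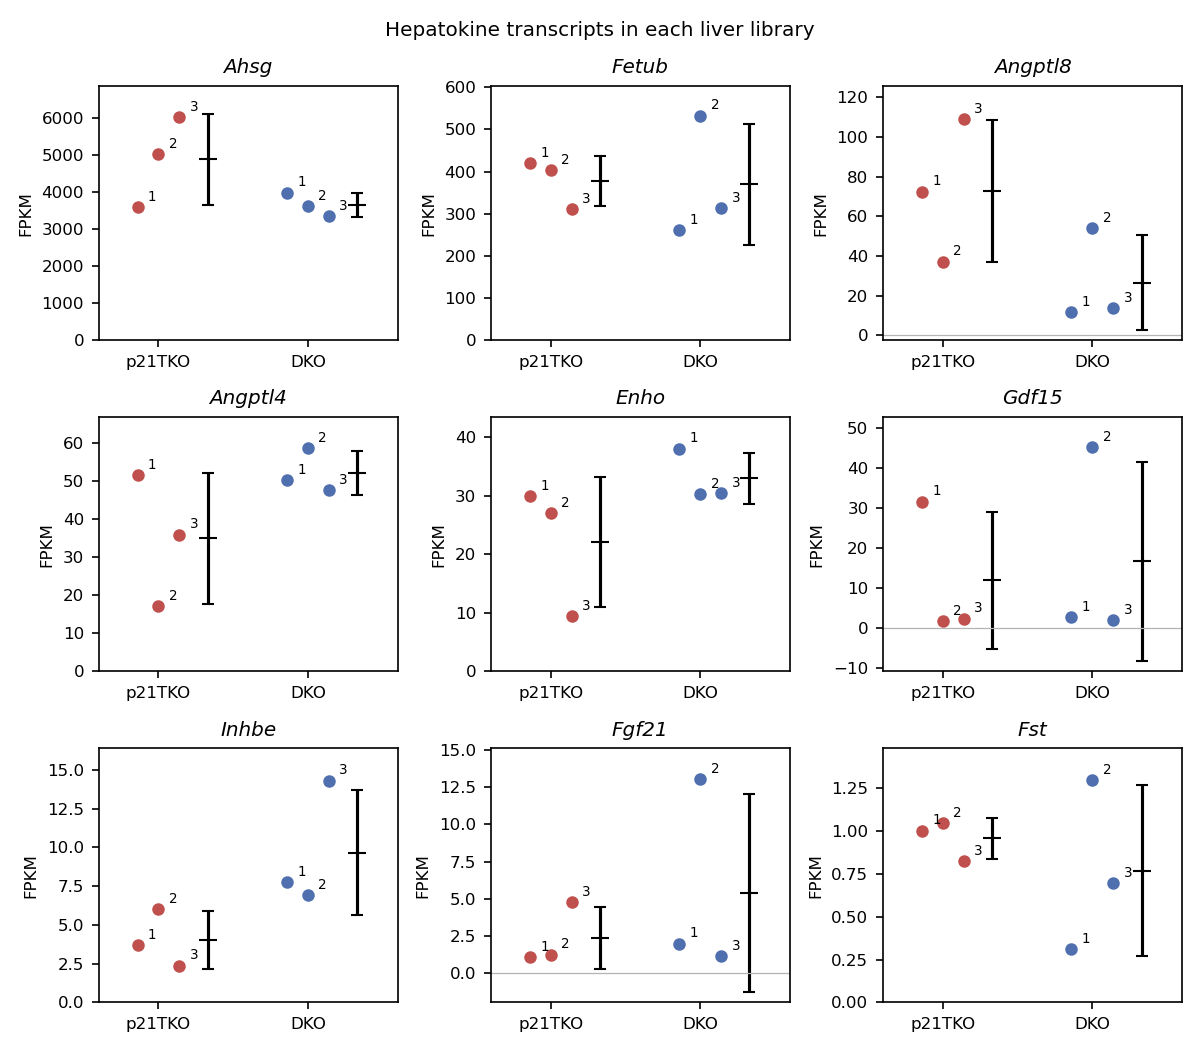
FPKM (vertical axes, linear, one scale per gene) of the 9 hepatokine genes in the p21TKO and DKO libraries, ordered by mean level. Numbers beside the points are replicates, and the black dash and bar are the mean and SD of 3 libraries. Gdf15 stands high in p21TKO replicate 1 and DKO replicate 2 alone, and Inhbe and Enho are the genes whose groups do not overlap.

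Gdf15 varied most of all hepatokines, and it did so across genotypes. Gdf15 (ENSMUSG00000038508, chromosome 8, 70629393 to 70632456, GRCm38) stood at 31.6, 1.74 and 2.31 FPKM in p21TKO replicates 1 to 3, from 1132, 74 and 116 reads, and at 2.72, 45.3 and 1.87 FPKM in DKO replicates 1 to 3, from 121, 1804 and 77 reads. The highest level was 26.0 times the lowest, and one library of each genotype was high while the remaining 4 lay between 1.74 and 2.72 FPKM. The group means were 11.9 ± 17.1 FPKM in p21TKO and 16.6 ± 24.8 FPKM in DKO (SD, n = 3 each), and 99.5% of the variance of its log2 values lay within the genotypes. Its SD over the 6 libraries exceeded that of 99.0% of tested genes, and the genotype difference of -0.25 had a 95% interval of -3.43 to 2.93 (limma adjusted p = 0.957). The high libraries both held Y-linked transcripts, yet DKO replicate 3, which held them too, had 1.87 FPKM. The difference was 1.5 within libraries with Y-linked transcripts and -0.30 within those without them. Without DKO replicate 2 the difference was 1.03 and without p21TKO replicate 1 it was -1.39, so its direction rested on single libraries.

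The genes whose profile over the 6 libraries came closest to that of Gdf15 were Btg2, Atf3 and Zfp36, with root mean square differences of 0.29, 0.33 and 0.35 on the log2 scale among 8590 protein-coding genes. Btg2 encodes an antiproliferative protein, Atf3 a stress-induced transcription factor, and Zfp36 tristetraprolin, which speeds the decay of cytokine messages. Atf3 stood at 25.5, 1.40 and 1.13 FPKM in p21TKO replicates 1 to 3 and at 1.72, 19.2 and 1.27 FPKM in DKO. Zfp36 stood at 255, 26.2 and 25.4 FPKM in p21TKO and at 48.1, 277 and 21.1 FPKM in DKO. Both were high in p21TKO replicate 1 and DKO replicate 2, the libraries with high Gdf15, which follows from their choice by likeness to its profile. With a pseudocount of 0.1, 2 of the 3 nearest genes were shared.

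Fgf21 shared the high DKO library with Gdf15 but not the high p21TKO library. Fgf21 (ENSMUSG00000030827, chromosome 7, 45613886 to 45615490) stood at 1.09, 1.24 and 4.78 FPKM in p21TKO replicates 1 to 3, from 20, 27 and 123 reads, and at 1.97, 13.0 and 1.14 FPKM in DKO, from 45, 267 and 24 reads. DKO replicate 2 was highest and p21TKO replicate 3 next, while p21TKO replicate 1, high for Gdf15, was the lowest of all 6. The means were 2.37 ± 2.09 FPKM in p21TKO and 5.38 ± 6.65 FPKM in DKO (SD, n = 3 each). The difference of -0.57 (95% interval -2.37 to 1.22) did not pass (limma adjusted p = 0.794), and without DKO replicate 2 it was 0.25. It was -1.39 within libraries with Y-linked transcripts and 0.28 within those without them. Foxq1, Id2 and Gm10226 came closest in profile (root mean square differences 0.59, 0.61 and 0.62), a looser likeness than that found for Gdf15.

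Atf4 and Ddit3, which encode the transcription factors ATF4 and CHOP of the integrated stress response, were set beside these hormones after their values were seen. Ddit3 stood at 18.3, 2.77 and 5.44 FPKM in p21TKO replicates 1 to 3 and at 2.28, 9.63 and 1.996 FPKM in DKO, highest in the same libraries as Gdf15. Atf4 stood at 106.5, 52.2 and 96 FPKM in p21TKO and at 45.98, 109 and 47.2 FPKM in DKO, so that p21TKO replicate 3 had high Atf4 with low Gdf15 (2.31 FPKM) and the second highest Fgf21 (4.78 FPKM). With 6 libraries these levels are a description, and no relation between the genes was tested.

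**Figure D2:**
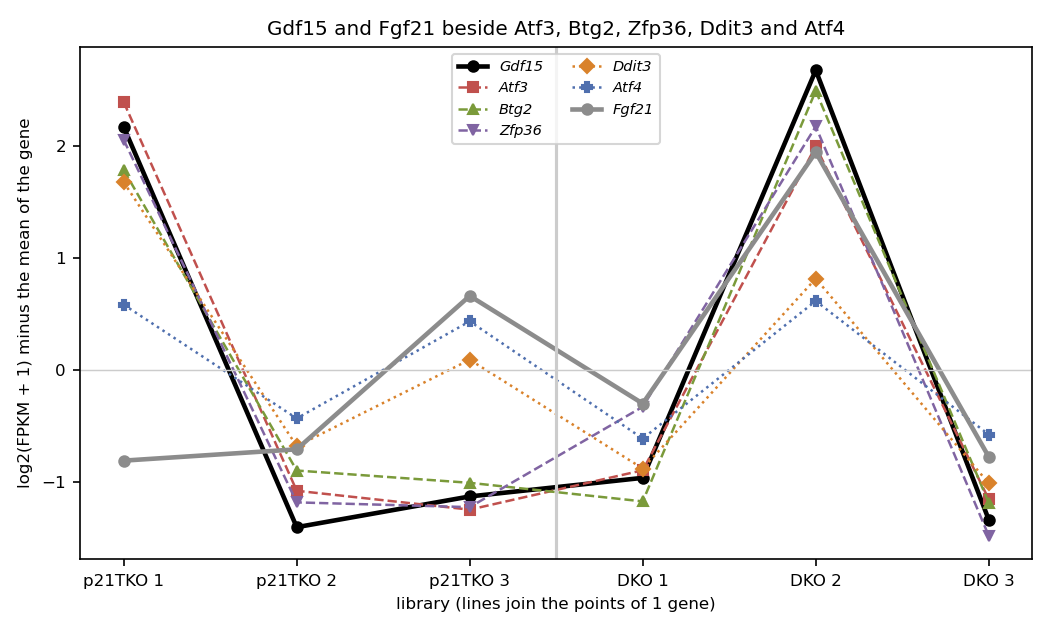
Levels of Gdf15, Fgf21 and 5 other genes in each library, as log2(FPKM + 1) minus the mean of the gene over the 6 libraries (vertical axis), p21TKO left of DKO. Lines join points of 1 gene and carry no order. Atf3, Btg2 and Zfp36, chosen as nearest in profile to Gdf15, peak with it in p21TKO replicate 1 and DKO replicate 2. Fgf21 is highest in DKO replicate 2 and next highest in p21TKO replicate 3.

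The lipase inhibitors Angptl8 and Angptl4 had differences of opposite sign, and neither passed the test. Angptl8 (ENSMUSG00000047822, chromosome 9, 21835510 to 21837347) stood at 72.5, 37.1 and 109 FPKM in p21TKO replicates 1 to 3 and at 11.8, 54.0 and 13.8 FPKM in DKO. DKO replicate 2 lay above p21TKO replicate 2, so the groups overlapped, although the other DKO libraries were below every p21TKO library. The means were 72.9 ± 35.9 FPKM in p21TKO and 26.5 ± 23.8 FPKM in DKO (SD, n = 3 each), with a difference of 1.63 (SE 0.65, 95% interval 0.08 to 3.17, unadjusted p = 0.0414, limma adjusted p = 0.523). It was positive within the libraries with Y-linked transcripts (1.37) and within those without them (2.33), and in each fit that left out 1 library (1.24 to 2.29, lowest limma adjusted p = 0.252). Angptl8 lies within Dock6, which runs on the opposite strand and did not exceed 1.15 FPKM, and shares no exon base with it.

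Angptl4 was lower on average in p21TKO through its replicates 2 and 3. Angptl4 (ENSMUSG00000002289, chromosome 17, 33773750 to 33781830) stood at 51.6, 17.2 and 35.95 FPKM in p21TKO replicates 1 to 3 and at 50.3, 58.7 and 47.6 FPKM in DKO. p21TKO replicate 1 lay among the DKO libraries and the other p21TKO libraries lay below them. The means were 34.9 ± 17.2 FPKM in p21TKO and 52.2 ± 5.76 FPKM in DKO (SD, n = 3 each), with a difference of -0.69 (95% interval -1.65 to 0.27, limma adjusted p = 0.583). Without p21TKO replicate 2 the difference was -0.27, and it was -0.03 within libraries with Y-linked transcripts and -0.99 within those without them. Angptl4 starts 4.69 Mb from Cdkn1a, the gene deleted in p21TKO, on the same chromosome, and whether sequence linked to the deletion bears on its level was not tested.

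Of the other angiopoietin-like genes, Angptl6 and Angptl2 did not pass either. Angptl6 averaged 2.94 ± 1.37 FPKM in p21TKO and 3.54 ± 1.38 FPKM in DKO, and Angptl2 averaged 1.37 ± 1.23 and 1.54 ± 0.328 FPKM in the same order (SD, n = 3 each). Gpihbp1, which carries lipoprotein lipase on capillary endothelium, stood at 0.809, 14.3 and 11.8 FPKM in p21TKO and at 1.73, 1.001 and 1.445 FPKM in DKO. It passed without p21TKO replicate 1 (2.56, limma adjusted p = 0.00402), in the libraries where endothelial markers summed to 95 and 51.1 FPKM against 21.4 FPKM in p21TKO replicate 1 and 20.95 to 32.5 FPKM in DKO. The part of those cells in its level was not tested.

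The fetuins were by far the most abundant hepatokine transcripts and varied least. Ahsg (ENSMUSG00000022868, chromosome 16, 22891277 to 22899449), at rank 15 of all tested genes by mean level, stood at 3605, 5045 and 6031 FPKM in p21TKO replicates 1 to 3 and at 3996, 3638 and 3361 FPKM in DKO. p21TKO replicates 2 and 3 lay above all other libraries and p21TKO replicate 1 lay among the DKO libraries. The means were 4894 ± 1220 FPKM in p21TKO and 3665 ± 318 FPKM in DKO (SD, n = 3 each), with a difference of 0.39 (95% interval -0.43 to 1.21, limma adjusted p = 0.697). Fetub (ENSMUSG00000022871), the next gene on the same strand (22918334 to 22939778), stood at 420, 404 and 311 FPKM in p21TKO and at 262, 533 and 314 FPKM in DKO. Its groups overlapped fully, with a difference of 0.09 (95% interval -0.76 to 0.94, limma adjusted p = 0.943). The neighbours therefore had different profiles: Fetub was highest in DKO replicate 2, where Ahsg (3638 FPKM) lay below p21TKO replicates 2 and 3 and DKO replicate 1.

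Kng1 and Kng2, the kininogen genes, and Hrg, for histidine-rich glycoprotein, were each highest in p21TKO replicates 2 and 3 and lowest in p21TKO replicate 1. Kng1 stood at 668, 1528 and 1972 FPKM in p21TKO replicates 1 to 3 and at 904, 775 and 718 FPKM in DKO. Hrg stood at 238, 767 and 829 FPKM in p21TKO and at 428, 346 and 420 FPKM in DKO. Kng2 averaged 229 ± 132 FPKM in p21TKO and 110 ± 17.2 FPKM in DKO and passed without p21TKO replicate 1 (1.46, limma adjusted p = 0.0394), whereas Cst3, for cystatin C, averaged 103 ± 21.9 and 87.5 ± 15.2 FPKM in the same order (SD, n = 3 each). All 6 genes of the list, both fetuins included, had higher mean log2 values in p21TKO (median 0.41, and 0.26 to 0.80 with 1 library left out) and 0 passed. Positive acute phase genes, like Ahsg, were highest in p21TKO replicates 2 and 3: they summed to 7821, 70860 and 40360 FPKM in p21TKO replicates 1 to 3 and to 12680 to 13880 FPKM in DKO, and 15 of 15 tested had higher values in p21TKO, 0 of them called. Of 9 tested negative acute phase genes, 6 had higher and 3 lower values in p21TKO (median 0.21), and 0 passed. The part of the acute phase in the level of Ahsg, whose protein falls in acute inflammation in humans, was not tested.

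Inhbe was the hepatokine with the lowest unadjusted p, and all its p21TKO values were below all its DKO values. Inhbe (ENSMUSG00000047492, chromosome 10, 127348857 to 127354411) stood at 3.68, 6.03 and 2.37 FPKM in p21TKO replicates 1 to 3 and at 7.78, 6.90 and 14.3 FPKM in DKO. The gap between the groups was narrow, from 6.03 FPKM in p21TKO replicate 2 to 6.90 FPKM in DKO replicate 2. The means were 4.03 ± 1.85 FPKM in p21TKO and 9.66 ± 4.05 FPKM in DKO (SD, n = 3 each), with a difference of -1.09 (SE 0.35, 95% interval -1.93 to -0.24, unadjusted p = 0.0192, limma adjusted p = 0.523). It was negative within libraries with Y-linked transcripts (-1.23) and within those without them (-0.85), and -1.36 to -0.79 when a library was left out, with 0.18 as the lowest limma adjusted p of these fits. Cyp3a25, Fbp1 and Adh4, all genes of hepatocyte metabolic enzymes, came closest in profile (root mean square differences 0.19, 0.20 and 0.21).

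The other activin subunits each had a pattern of their own. Inhbc, which like Inhbe is mainly expressed in liver, stood at 44.4, 30.7 and 7.36 FPKM in p21TKO replicates 1 to 3 and at 22.7, 42.7 and 30.2 FPKM in DKO. Inhbb, for the activin B subunit, stood at 0.182, 6.09 and 6.03 FPKM in p21TKO and at 0.313, 0.0874 and 0.116 FPKM in DKO. It was thus near 0 in 4 libraries and at about 6 FPKM in p21TKO replicates 2 and 3, and it passed without p21TKO replicate 1 (2.60, limma adjusted p = 0.00332) but not over all libraries (1.74, limma adjusted p = 0.523). Inhbb reached the mean required for testing only through p21TKO replicates 2 and 3. Inhba, for activin A, averaged 2.22 ± 2.03 FPKM in p21TKO and 2.70 ± 1.09 FPKM in DKO (SD, n = 3 each).

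Follistatin was the scarcest hepatokine transcript. Fst (ENSMUSG00000021765, chromosome 13, 114452290 to 114458951) stood at 1.002, 1.04 and 0.821 FPKM in p21TKO replicates 1 to 3, from 89, 110 and 102 reads, and at 0.308, 1.30 and 0.696 FPKM in DKO, from 34, 128 and 71 reads. All p21TKO values lay between the second and the highest DKO value. The log2 difference of 0.18 gave p = 0.6 in an exact two-sided permutation test over the 20 arrangements of the libraries, which cannot give a p under 0.1. Of 6 tested activin receptors and SMAD genes 0 passed, with Smad3, a transducer of activin signals, at 1.75 ± 0.587 FPKM in p21TKO and 3.16 ± 1.075 FPKM in DKO, and Acvr2a, an activin receptor, at 2.31 ± 0.511 and 3.53 ± 1.06 FPKM in the same order. Smad7, an inhibitor of the pathway, was highest in p21TKO replicate 3 (5.56 FPKM) and stood at 1.26 to 2.45 FPKM elsewhere.

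Enho was lower in every p21TKO library than in every DKO library, mainly through one of them. Enho (ENSMUSG00000028445, chromosome 4, 41638144 to 41640324) stood at 29.95, 27.0 and 9.38 FPKM in p21TKO replicates 1 to 3 and at 38.0, 30.3 and 30.5 FPKM in DKO. p21TKO replicate 1 fell short of DKO replicate 2 by a fraction of 1 FPKM, and p21TKO replicate 3 stood far below the rest. The means were 22.1 ± 11.1 FPKM in p21TKO and 32.9 ± 4.42 FPKM in DKO (SD, n = 3 each), with a difference of -0.70 (95% interval -1.73 to 0.33, limma adjusted p = 0.597). Without p21TKO replicate 3 it was -0.20, and it was -0.02 within libraries with Y-linked transcripts and -1.20 within those without them. Fgf1, C2cd2 and Dpys came closest in profile (root mean square differences 0.09, 0.13 and 0.13).

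**Figure D3:**
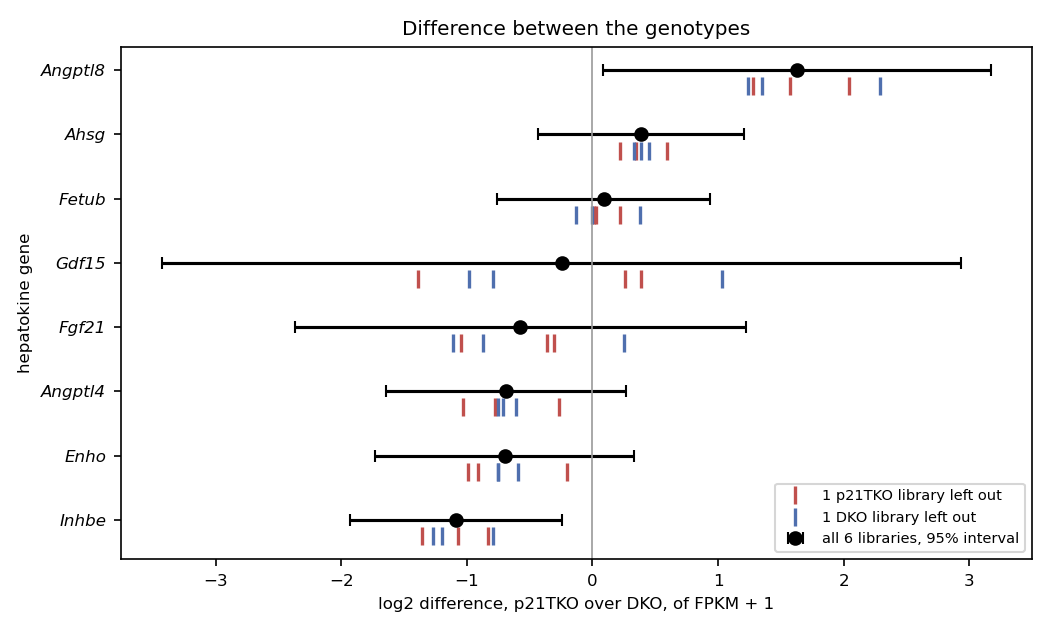
Differences between p21TKO and DKO of the 8 tested hepatokine genes, on the log2(FPKM + 1) scale (horizontal axis). Points and bars are the limma estimate and its 95% interval over 6 libraries, and ticks are the estimates with 1 library left out. Inhbe and Angptl8 have intervals that do not reach 0 before adjustment, and the ticks of Gdf15, Fgf21 and Fetub fall on both sides of 0.

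By mean level over the 6 libraries, per exon length, the order was Ahsg (4279 FPKM), Fetub (374 FPKM), Angptl8 (49.7 FPKM), Angptl4 (43.6 FPKM), Enho (27.5 FPKM), Gdf15 (14.2 FPKM), Inhbe (6.84 FPKM), Fgf21 (3.88 FPKM) and Fst (0.861 FPKM). Ahsg exceeded Fetub and Fetub exceeded Angptl8 with ranges that did not meet. Below them the ranges of every pair of neighbours overlapped. Within libraries, Fgf21 was above Fst in 6 of 6 and Angptl4 above Enho in 5 of 6, Enho above Gdf15 and Inhbe above Fgf21 in 4 of 6 each, Angptl8 above Angptl4 in 3 of 6 and Gdf15 above Inhbe in 2 of 6.

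Genes that receive, regulate or accompany the hepatokines did not pass over all libraries, by limma on log2 values or by voom on recovered reads. At an unadjusted p under 0.05 (limma), where 5.29% of all tested genes were lower and 4.09% higher, 5 of 24 genes of the PPARA list, 3 of 21 of the insulin, SREBP1 and ChREBP list, 1 of 16 of the integrated stress response list (Asns) and 1 of 6 activin transducers (Smad3) were lower in p21TKO. Inhbb, for the activin B subunit, and 4 of 6 tested neutrophil markers, of 12 listed, were higher at that threshold. Inhbb, Camp, Ngp and Mmp8 did not exceed 0.647 FPKM in any DKO library, and Retnlg averaged 0.918 FPKM in DKO. These genes reached the mean required for testing only through p21TKO, so a higher value there followed from their selection. Of the receptors, the cystatin-domain proteins, the positive acute phase genes and the other liver hormones, 0 were under it in either direction. The PPARA list holds PPARA and its targets, among them enzymes of fatty acid oxidation. Of its 24 tested genes 0 passed, and 19 had lower and 5 higher values in p21TKO, where 4748 and 4790 of all 9538 tested genes did. The median difference of the PPARA list was -0.40 (-0.47 to -0.27 with 1 library left out). Cpt1a, which admits fatty acids to mitochondria, averaged 30.9 ± 4.91 FPKM in p21TKO and 56.8 ± 10.25 FPKM in DKO (SD, n = 3 each). Ehhadh, a peroxisomal enzyme, averaged 26.7 ± 7.96 FPKM in p21TKO and 57.05 ± 19.25 FPKM in DKO, and Vnn1, for pantetheinase, averaged 8.31 ± 6.92 and 20.2 ± 3.18 FPKM. Angptl4, a target of PPARA, had a lower mean in p21TKO as these did, while its p21TKO replicate 1 was level with DKO and that of Cpt1a (36.3 FPKM) was below all DKO libraries (45.1 to 64.1 FPKM). Centred on the mean of each gene, the PPARA list's median was -0.08, -0.24 and -0.38 in p21TKO replicates 1 to 3 and 0.05 to 0.39 in DKO. Its summed FPKM was 11850, 1963 and 1705 in p21TKO and 7005 to 10520 in DKO, highest in p21TKO replicate 1.

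Of 21 tested insulin, SREBP1 and ChREBP genes 0 passed, and 16 had lower values in p21TKO with a median of -0.62, opposite in sign to Angptl8 (1.63). Leaving out p21TKO replicate 3 brought that median to -0.23, and leaving out p21TKO replicate 1 to -0.82. Centred on the mean of each gene, the list's median level was 0.37, -0.15 and -1.08 in p21TKO replicates 1 to 3 and 0.12 to 0.32 in DKO, so that p21TKO replicate 1 was the highest library and p21TKO replicate 3 the lowest. Mlxipl, which encodes ChREBP, averaged 7.22 ± 5.21 FPKM in p21TKO and 18.9 ± 1.90 FPKM in DKO, and Scd1, for stearoyl-CoA desaturase, stood at 815, 60.15 and 67.1 FPKM in p21TKO replicates 1 to 3 and at 697, 1126 and 714 FPKM in DKO. Txnip averaged 13.9 ± 1.83 FPKM in p21TKO and 25.8 ± 7.02 FPKM in DKO, and Acacb, for an acetyl-CoA carboxylase, 4.06 ± 1.95 and 7.335 ± 2.85 FPKM (SD, n = 3 each). In p21TKO replicate 3, Angptl8 was at its highest (109 FPKM) and Mlxipl at its lowest (3.14 FPKM). Rpl36a and Rpl41, genes of ribosomal proteins, were among the 3 nearest to Angptl8 in profile (root mean square differences 0.50 and 0.52), and with a pseudocount of 0.1 neither was.

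The integrated stress response list had 16 tested genes, of which 0 passed, 11 had higher and 5 lower values in p21TKO, and the median was 0.13, and -0.02 without p21TKO replicate 1. Asns, for asparagine synthetase, stood at 0.189, 2.198 and 4.26 FPKM in p21TKO replicates 1 to 3 and at 2.68, 10.7 and 17.9 FPKM in DKO. It was thus lowest in p21TKO replicate 1, where Gdf15, Atf3 and Ddit3 were high. Trib3, a pseudokinase gene downstream of CHOP, averaged 2.52 ± 0.326 FPKM in p21TKO and 3.25 ± 0.191 FPKM in DKO, Slc3a2, an amino acid transporter subunit, 12.7 ± 3.65 and 8.66 ± 1.12 FPKM, and Shmt2, a mitochondrial one-carbon enzyme, 52.3 ± 27.0 and 72.2 ± 9.83 FPKM (SD, n = 3 each).

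Of 11 tested receptor and partner genes 0 passed (5 higher, 6 lower, median -0.14, and 0.07 without p21TKO replicate 1), and Gfral, the GDF15 receptor of the hindbrain, was below the level required for testing. Fgfr3 averaged 1.76 ± 0.712 FPKM in p21TKO and 3.07 ± 1.19 FPKM in DKO. Of 15 other liver-secreted hormone genes 0 passed, with 10 higher and 5 lower values and a median of 0.30, which was 0.10 without p21TKO replicate 3 and 0.49 without DKO replicate 2. Manf, for a secreted stress-responsive protein, averaged 58.0 ± 21.4 FPKM in p21TKO and 30.25 ± 10.46 FPKM in DKO, Igfbp2, for an IGF-binding protein, 385 ± 127 and 245.5 ± 43.1 FPKM, and Gdf2, for BMP9, 5.02 ± 1.25 and 3.03 ± 1.21 FPKM (SD, n = 3 each).

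**Figure D4:**
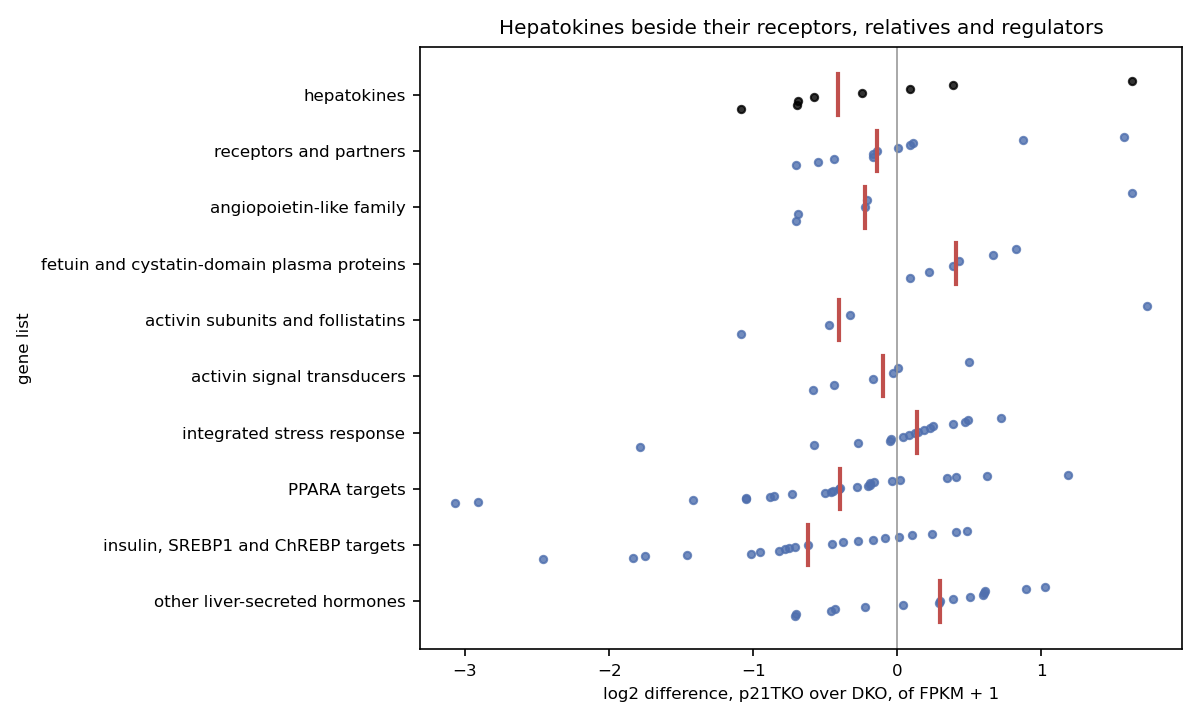
Differences between p21TKO and DKO on the log2(FPKM + 1) scale (horizontal axis) of the tested genes of each list, with hepatokines in black. Each point is 1 gene and the red bar is the median of the list. The PPARA and the insulin, SREBP1 and ChREBP lists have medians of -0.40 and -0.62, and Angptl8 (1.63) stands apart at the right of the hepatokines.

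Leaving out p21TKO replicate 1 changed calls for the lists and not for the hepatokines. Without it 5.19% of all tested genes passed, 225 higher and 270 lower, and 0 of the 8 tested hepatokines were among them. That fit left p21TKO replicates 2 and 3, without Y-linked transcripts, against all DKO libraries, of which replicates 2 and 3 held such transcripts. Genotype, sex and the high neutrophil and acute phase levels of those p21TKO libraries therefore cannot be told apart in its calls. This holds for Gpihbp1, Kng2, Inhbb and Cdkn1a too. In that fit 3 genes of the insulin, SREBP1 and ChREBP list fell, Mlxipl, Scd1 and Elovl6, and of the PPARA list 3 fell (Vnn1, Fabp1 and Acaa1b) and 2 rose (Cyp4a14 and Pdk4), all by limma at an adjusted p under 0.05. The positive acute phase list had 7 of 15 called, all higher, the neutrophil markers 5 of 6, the endothelial markers 5 of 11 and the Kupffer cell markers 3 of 12. Of the called markers, Retnlg, Camp, Ngp, Lyve1 and Tek averaged under 1 FPKM in DKO and reached the mean required for testing only through p21TKO. Cdkn1a, the gene named as deleted in p21TKO, was itself called higher in p21TKO in that fit (2.32, limma adjusted p = 0.0224). The smallest adjusted p of any hepatokine over every alternative was that of Angptl4 in the same fit (-1.03, limma adjusted p = 0.134).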

How the data were processed

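Liver polyA RNA was sequenced in 6 libraries, 3 labelled p21TKO and 3 labelled DKO, from TRIzol RNA with NEBNext Ultra libraries, per the labels' protocols. The authors deposited a table of FPKM. The submitters' processing notes name HISAT2 2.0.5 and fastp, with featureCounts 1.5.0-p3, CASAVA 1.8 and DESeq2 1.20.0, and they list human builds beside mouse gene identifiers. The genome build is thus unsettled, and the sources used here do not give strandedness. Exons of Ahsg, Fst and Enho share 2.8%, 2.5% and 1.2% of their bases with genes on the other strand, whose reads cannot be told apart without strand. For 55480 genes, identifiers matched GENCODE M21, whose GRCm38 coordinates are printed.

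FPKM times union exon length gave whole reads within 0.02 for 99.3% of values in each library, from which reads were taken. Values were used as deposited, without further scaling. Genes with a mean of at least 1 FPKM were fitted in R 4.3.3 by limma 3.58.1 with a trend, on log2(FPKM + 1), two-sided, with Benjamini-Hochberg adjustment over all 9538. The fit was tested on simulated data. Lists are described by counts and medians, with no test. The members and lists were chosen with earlier results of these data known. Genes named are the 9 members, tested relatives of the angiopoietin-like, cystatin and activin families, up to 4 genes per list by smallest p, and the 3 protein-coding genes nearest in profile to each member, of which a few are not reported here. Marker and acute phase lists that accompany a result are given as sums. Atf4, Ddit3 and genes called without p21TKO replicate 1 were named after their values were seen, and so were the 8 promoter motifs searched. Alternatives were the pseudocount, the filter, scaling, the variance model, a replicate block, a sex term, limma voom on recovered reads and leaving out each library. Python 3.11.15 and matplotlib 3.10.9 were used.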

Additional observations from a re-analysis of the deposited data

Results flagged for a closer look

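For 9 genes named above, the p21TKO and DKO libraries were apart in opposite directions among libraries with Y-linked transcripts (p21TKO replicate 1 against DKO replicates 2 and 3) and among those without (p21TKO replicates 2 and 3 against DKO replicate 1). Among the 9 hepatokines, Gdf15 (1.5 with Y-linked transcripts and -0.30 without) and Fgf21 (-1.39 and 0.28) also had differences of opposite sign, but their libraries were not apart in both. None of these differences between the sexes was tested. With 1 library on a side, each value rests on few libraries. The log2 difference with Y-linked transcripts, and without, was 0.67 and -0.80 for Angptl2, 0.42 and -0.87 for Angptl6 and 0.82 and -1.19 for Inhba. It was -0.68 and 0.90 for Hrg, -0.16 and 0.94 for Kng1 and -0.32 and 1.21 for Kng2. It was 0.08 and -1.21 for Fgfr3, -0.29 and 2.36 for Gpihbp1 and 1.97 and -0.27 for Atf3. In libraries without Y-linked transcripts the p21TKO side consists of replicates 2 and 3, which also had the highest neutrophil and acute phase levels, and the part of sex in these values cannot be told apart from that of those libraries.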

How the results depend on the processing

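The number of hepatokines called was 0 in all 17 alternative fits. Differences of Inhbe, Enho and Angptl4 stayed negative and those of Angptl8 and Ahsg positive in all of them. Gdf15 turned to 0.60 with a sex term, 0.39 without p21TKO replicate 2, 0.26 without p21TKO replicate 3 and 1.03 without DKO replicate 2, Fgf21 to 0.25 without DKO replicate 2, and Fetub to -0.01 with mitochondrial genes left out and -0.13 without DKO replicate 1. Leaving out 1 library gave -1.39 to 1.03 for Gdf15, -1.11 to 0.25 for Fgf21 and -0.13 to 0.38 for Fetub. It gave -0.61 to 0.10 for Angptl2, -0.47 to 0.09 for Angptl6 and -0.97 to 0.25 for Inhbc, each positive only without p21TKO replicate 3. The causes were not tested. Over all tested genes, 7 were called, 3 higher and 4 lower. The counts were 5 higher with a pseudocount of 0.1, 1 in all (0 higher, 1 lower) with no filter, 4 in all (2 lower) at a mean of at least 5 FPKM, and 1 in all (0 higher, 1 lower) with voom on recovered reads. Leaving out 1 library gave 1 to 495 genes (0 to 225 higher, 1 to 270 lower), and 0 to 33 genes of the lists. With the replicate number as a block, limma called 0 genes (0 higher, 0 lower), and 588 had an unadjusted p under 0.05. Same-numbered libraries did not deviate together (correlations -0.44, -0.49 and -0.07), so the numbers were not taken as pairs. The median of all genes moved most with mitochondrial genes left out, by 0.078. The mean of 1 FPKM and 3 libraries a group limit what could be called, and Fgf21 rested on 20 to 267 reads.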
